A study of Mus musculus with 16 samples.

Results

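The genes described here are 33 smooth muscle contractile genes and targets of the SRF and YAP pathways, followed over 4 genotypes of osteogenic marrow cultures. They were chosen by symbol, and all 33 have an entry among the 45796 genes of the count table. After genes with too few reads were set aside, 32 of the 33 were tested among 16430 genes. The gene set aside was Pdlim3, a PDZ-LIM protein of the actin cytoskeleton, with at most 12.7 counts in a library.

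Serum response factor (SRF) binds a short DNA element, the CArG box, and switches on actin cytoskeleton and smooth muscle genes together with myocardin or the myocardin-related factors, which enter the nucleus when monomeric actin is used up in filaments. YAP and TAZ, the coactivators held back by the Hippo kinases, act through TEAD factors that bind the MCAT element, and both routes respond to cell spreading and tension. In marrow stromal cultures the contractile genes mark myofibroblast-like and perivascular cells as well as spread stromal cells, and they are commonly used to follow the mechanical state of cells that form bone.

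Bone marrow stromal cells, the adherent cells of marrow that form mineralised nodules, came from 12-week-old mice, by the study's methods, and were sampled on day 21 of culture in a medium with ascorbic acid at 50 µg/ml and beta-glycerophosphate at 10 mM. All mice carried floxed Fgf23 alleles (Fgf23 fl/fl). WT cultures were Dmp1+/+ Fgf23 fl/fl without Cre, Fgf23cKO cultures were Dmp1+/+ Fgf23 fl/fl with Dmp1-cre, Dmp1KO cultures were Dmp1-/- Fgf23 fl/fl without Cre, and Dmp1KO/Fgf23cKO cultures were Dmp1-/- Fgf23 fl/fl with Dmp1-cre. Dmp1 encodes a phosphoprotein of bone matrix, and Fgf23 the phosphate-lowering hormone of osteocytes. The Cre is driven by the Dmp1 promoter, active in mature osteoblasts and osteocytes, so that stromal cells and progenitors of a Cre culture may keep an intact Fgf23 gene, whereas Dmp1 is lost from every cell of a Dmp1KO culture. Each genotype gave 4 libraries. Fewer mice than libraries are described, so that some libraries may share an animal, and the p-values measure the spread between libraries, which may be technical.

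Totals per library ranged from 61.9 M to 79.5 M counts. Fgf23 was below 0.1 CPM (counts scaled to the library total) in the 8 libraries with Cre, and Dmp1 stood at 41.2 to 109 CPM in the 8 Dmp1-/- libraries against 329 to 1396 CPM in the other 8. The 6 osteoblast markers summed to between 29910 and 138300 CPM, and 6 macrophage markers to between 4944 and 10360 CPM, so that RNA of both cell types was present in every library. Of 11 skeletal muscle markers, 8 (Myod1, Myog, Myf5, Pax7, Ckm, Tnnt3, Myh3 and Myh4) had too few reads for a test, and the list summed to 1.46 to 4.83 CPM.

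Before any comparison, the libraries of a genotype have to be looked at singly, because those of Dmp1KO/Fgf23cKO did not lie together. In Dmp1KO/Fgf23cKO 1 and 2, 0 and 5 of the 32 genes lay below all 4 WT libraries (0% and 15.6%, against 27.4% and 30.6% of all genes tested). Above them lay 16 and 9 (50% and 28.1%, against 30.1% and 30.4% of all genes tested), so that only library 1 exceeded the share of all genes. In Dmp1KO/Fgf23cKO 3 and 4, 26 and 27 lay below all WT libraries (81.2% and 84.4%, against 38.3% and 37.2% of all genes tested). The median difference of the 32 genes from the WT mean, on the log2 scale, was 0.20 and 0.08 in the first pair. It was -0.79 and -0.65 in the second. The median over all genes tested was between -0.02 and 0.00 in the 4 libraries, but the scaling of totals holds it near 0. The split was not limited to these genes. Over all genes tested, the mean chi-square between libraries was 424 to 874.5 across the pairs, and 76.8 and 61.4 within them. The osteoblast marker sums of Dmp1KO/Fgf23cKO 1 to 4 were 38170, 30700, 138300 and 101100 CPM. Most of each was the collagen gene Col1a1 (31935, 25572, 125560 and 90710 CPM). The part of that difference in the result was not tested.

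Other libraries also stood apart in these genes. Fgf23cKO 1 and 4 had 25 and 20 of the 32 genes below all WT libraries (78.1% and 62.5%), against 4 and 5 in Fgf23cKO 2 and 3 (12.5% and 15.6%). Of all genes tested, 30.3% to 33% lay below in these 4 libraries. In Dmp1KO 1 to 4 the number was 30, 19, 25 and 13, with medians of -0.99, -0.27, -0.51 and -0.20 on the log2 scale. As shares these were 93.8%, 59.4%, 78.1% and 40.6%, against 35%, 37.4%, 39.3% and 37.7% of all genes tested. Dmp1KO 4 was thus near the share of all genes. WT 1 lay below the other 3 WT libraries in 26 of the 32 genes (81.2%, against 27.6% of all genes tested), with a median of -0.29.

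**Figure D1:**
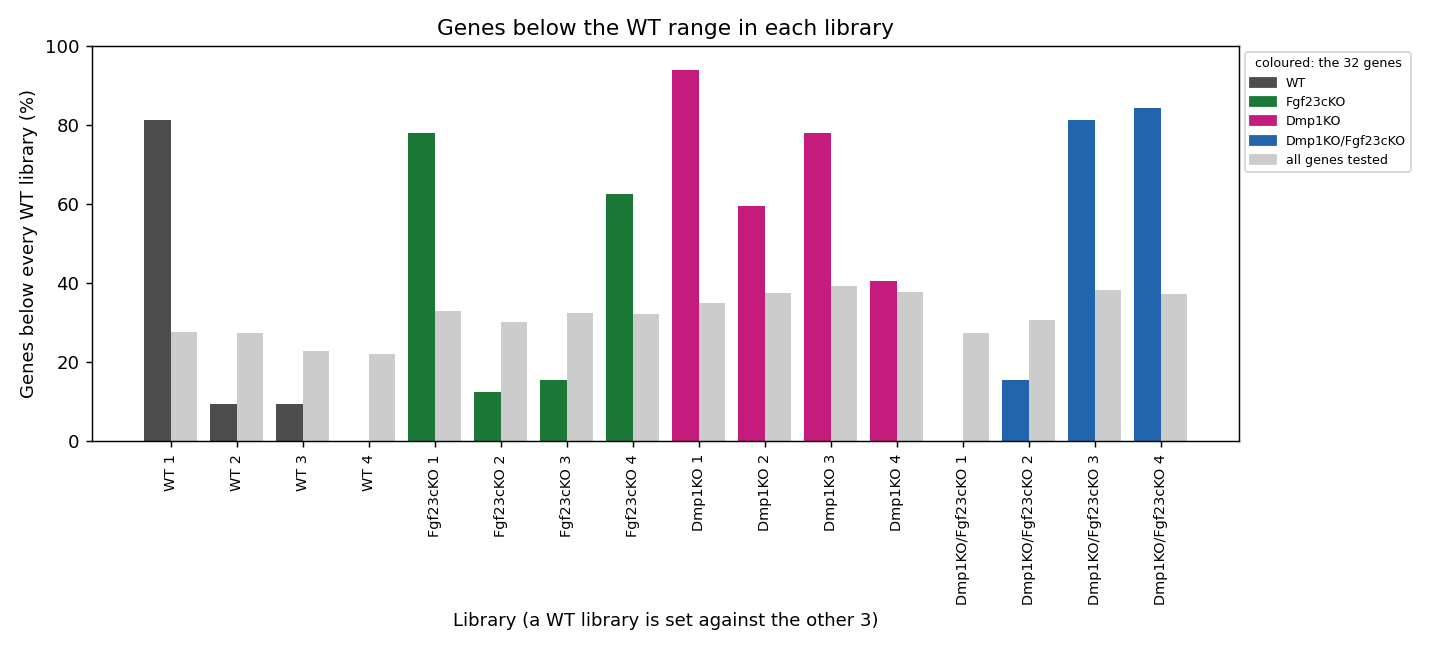
Share of genes lying below every WT library, by library, in percent; coloured bars show the 32 genes tested and grey bars all 16430 genes, and each WT library is compared with the other 3. The coloured bar reaches 93.8% in Dmp1KO 1 and over 60% in Fgf23cKO 1 and 4, Dmp1KO 3, Dmp1KO/Fgf23cKO 3 and 4 and WT 1, and is 0% in Dmp1KO/Fgf23cKO 1, whereas grey bars lie between 22% and 39.3%.

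Most of the 32 genes shared these orders. Fgf23cKO 1 and 4 were the lowest libraries of their genotype in 29 of the 32 genes (90.6%, against 21.3% of all genes tested), Dmp1KO 1 was the lowest of its genotype in 28 (87.5%, against 34.2%), and Dmp1KO/Fgf23cKO 3 and 4 were the lowest in 26 (81.2%, against 33.9%). The libraries were picked because these same genes were low in them, so shares above those of all genes follow in part from the choice. These orders are read from the same libraries as all results below and are a description without a test. In bulk RNA, fewer cells of a contractile type and less RNA per cell cannot be told apart.

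**Figure D2:**
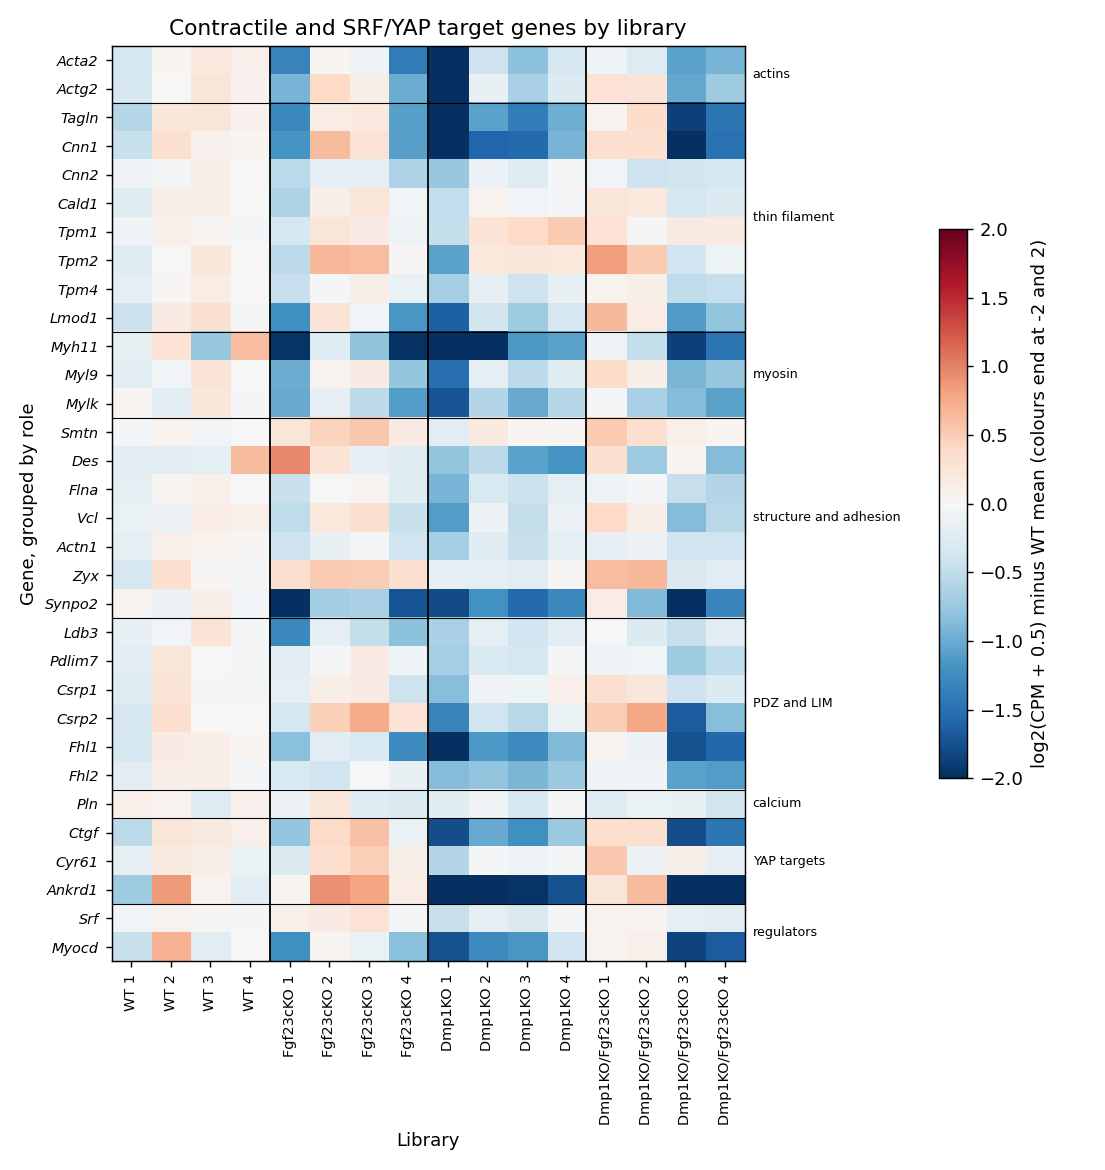
Difference of each of the 32 genes from its WT mean in each library, as log2 of CPM plus 0.5, with genes grouped by role and colours ending at -2 and 2. Blue columns stand out in Fgf23cKO 1 and 4, in all Dmp1KO libraries with Dmp1KO 1 deepest, and in Dmp1KO/Fgf23cKO 3 and 4, while the rows of Tpm1, Smtn, Zyx, Cyr61 and Pln stay pale or turn red.

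The promoters of these genes were read first, since the CArG and MCAT elements tie them to SRF and TEAD. Windows of 250 bases before to 50 bases after the start, from RefSeq (GRCm38.p6), were available for 27 of the 33 genes, in 32 windows, and Actg2, Csrp2, Ctgf, Myh11, Myocd and Tagln were not matched. An exact CArG box occurred in 7 of the 27 genes (25.9%), against 488 of 27025 genes with a window (1.81%). The MCAT core, searched as GGAATG on both strands (CATTCC on the other), occurred in 11 of the 27 (40.7%), against 16.6% of all genes. Many of the genes are known through these elements, so the shares describe the list and a match is not evidence of binding.

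The CArG boxes of the 7 genes are shown because they are the letters by which SRF recognises a promoter. Cnn2 and Vcl held the same letters, Srf held 2 boxes, and the windows of Ldb3 overlap and hold 1 box between them:
Fhl2, window with the start at the upstream promoter: CCAAAAAAGG
Fhl2, window with the start at the downstream promoter: CCTTATATGG
Myl9: CCTAATAAGG
Cnn2: CCTTATAAGG
Vcl: CCTTATAAGG
Ldb3: CCATTTATGG
Srf, first box: CCATATAAGG
Srf, second box: CCATAAAAGG
Fhl1: CCTAAAATGG

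In their promoters these boxes lay between 22 and 227 bases before the start, counted to their nearest and farthest bases. Of the 3 windows printed next, those of Fhl2 and Srf carry CArG boxes and that of Ankrd1 carries 2 MCAT cores, in capitals and 5′ to 3′ on the strand of the gene. They were picked because Fhl2 had the smallest adjusted p in Dmp1KO, Ankrd1 the largest change, and Srf encodes the factor itself. They lie on the minus strand at chr1:43163912-43164211, chr17:46556113-46556412 and chr19:36119795-36120094:
Fhl2: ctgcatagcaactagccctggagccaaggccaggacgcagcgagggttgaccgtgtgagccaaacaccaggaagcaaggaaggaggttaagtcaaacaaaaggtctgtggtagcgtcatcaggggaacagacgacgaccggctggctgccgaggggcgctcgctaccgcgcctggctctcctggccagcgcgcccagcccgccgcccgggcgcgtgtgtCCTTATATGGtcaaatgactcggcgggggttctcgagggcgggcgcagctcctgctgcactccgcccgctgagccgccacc
Srf: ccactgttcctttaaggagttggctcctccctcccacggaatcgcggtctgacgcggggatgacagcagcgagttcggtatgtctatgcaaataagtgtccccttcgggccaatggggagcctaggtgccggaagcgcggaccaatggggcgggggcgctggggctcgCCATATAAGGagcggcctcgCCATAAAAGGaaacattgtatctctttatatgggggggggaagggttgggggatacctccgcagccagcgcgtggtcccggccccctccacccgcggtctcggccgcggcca
Ankrd1: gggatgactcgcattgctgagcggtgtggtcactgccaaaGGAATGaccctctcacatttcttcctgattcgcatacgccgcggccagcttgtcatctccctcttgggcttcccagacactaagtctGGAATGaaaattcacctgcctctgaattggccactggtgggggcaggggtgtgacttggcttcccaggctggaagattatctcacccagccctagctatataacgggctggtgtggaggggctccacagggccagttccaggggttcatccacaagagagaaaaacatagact

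In the Fhl2 window the box spans bases -31 to -22 from the start, in Srf the boxes span -82 to -73 and -62 to -53, and in Ankrd1 the cores span -210 to -205 and -123 to -118. The MCAT core was also found in Lmod1, Cyr61, Cald1, Pdlim3, Tpm1, Smtn, Vcl, Mylk, Acta2 and Flna. Of the 10 genes that fell in Dmp1KO, Fhl1 and Fhl2 had a CArG box in a window, and Mylk and Ankrd1 an MCAT core. Tagln and Myh11 had no window, and whether the calls follow the matches was not tested.

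**Figure D3:**
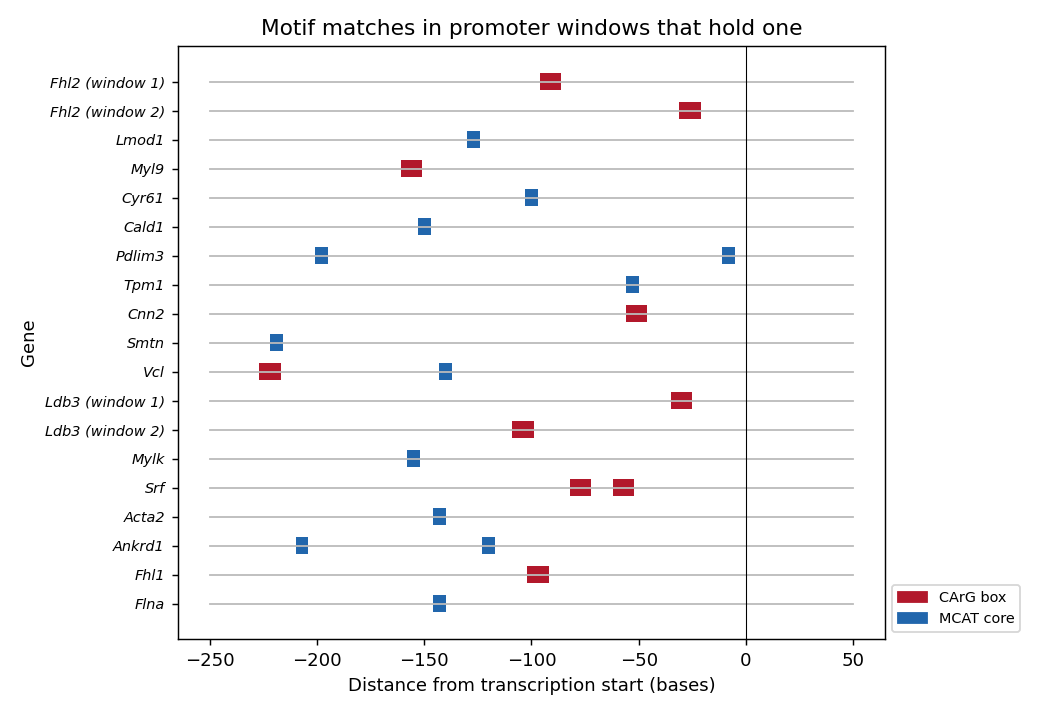
Position of exact CArG boxes (red) and MCAT cores (blue) in the promoter windows that hold one, as distance in bases from the transcription start at 0. CArG boxes of 7 genes and MCAT cores of 11 genes are spread from 227 to 6 bases before the start, with Vcl alone holding both.

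Levels in WT spanned a wide range once divided by exon length (CPM per kb of the exons in GENCODE M21). Acta2, alpha smooth muscle actin, stood at 397 ± 61.7 CPM per kb (SD, n = 4) and Ctgf, a secreted matrix-associated growth regulator, at 385 ± 83.8 CPM per kb, which did not differ beyond their spread. Tpm4 (a tropomyosin) followed at 244 ± 22.2 CPM per kb, Tagln (the actin-binding protein transgelin) at 207 ± 48.3 CPM per kb and Flna (the actin cross-linker filamin A) at 177 ± 14.7 CPM per kb. At the other end stood Myh11, the smooth muscle myosin heavy chain, at 0.916 ± 0.375 CPM per kb, Myocd, myocardin itself, at 0.506 ± 0.218 CPM per kb, and Pln, the calcium pump inhibitor phospholamban, at 0.109 ± 0.0329 CPM per kb. The cultures therefore carried abundant smooth muscle actin and transgelin mRNA beside very little of the smooth muscle myosin heavy chain and of desmin, the muscle intermediate filament, which stood at 1.30 ± 0.471 CPM per kb.

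The comparison of Dmp1KO with WT takes loss of Dmp1 together with raised Fgf23 mRNA. Fgf23 stood at 6.19, 3.51, 1.63 and 3.42 CPM in Dmp1KO 1 to 4, against 0.633 to 1.08 CPM in WT. Loss of Dmp1 and excess of Fgf23 cannot be told apart in this comparison. Of the 32 genes, 10 fell and 0 rose at an adjusted p under 0.05, that is 31.2% lower, where 15.8% of all genes tested were called lower and 18.0% higher. The genes that fell were Fhl2, Synpo2, Ankrd1, Fhl1, Mylk, Actn1, Myh11, Des, Cnn1 and Tagln. The log2 fold change was negative for 30 of the 32, with a median of -0.53. Over all genes tested the median was -0.02, which the scaling holds near 0. All 4 Dmp1KO libraries lay below all 4 WT libraries for 12 of the 32 genes, where 19.1% of all genes did so. Adjusted p-values here and below are from edgeR's quasi-likelihood test with Benjamini-Hochberg adjustment over the 16430 genes.

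The thin filament and its motor come first. Tagln stood at 270.2, 471, 474 and 427 CPM in WT 1 to 4 and at 68.3, 190.1, 154 and 203 CPM in Dmp1KO 1 to 4, a fall of 2.67-fold (log2 -1.42 ± 0.50 SE, adjusted p = 0.0421). The groups did not overlap, although WT 1 lay far below the other WT libraries. On the opposite strand, 67.9% of the exon bases of Tagln are overlapped by Pcsk7 and Gm48529, so its counts may include their reads if strand was not used. Of the 50-base stretches of Tagln, 44.5% also occur in Gm48529, which was not analysed here, and 3.82% in Pcsk7, which stood at 27.9 to 36.7 CPM over the 16 libraries. The part of these overlaps in the value of Tagln was not tested.

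Cnn1, calponin 1, which binds actin and slows the myosin motor, stood at 28.2, 48.2, 41 and 39.7 CPM in WT and 5.89, 12.5, 12.8 and 20.0 CPM in Dmp1KO (log2 -1.62 ± 0.57 SE, adjusted p = 0.0418). Its lowest value was again Dmp1KO 1, and the groups did not overlap. Myh11 stood at 5.85, 8.08, 3.64 and 10.3 CPM in WT and 0.754, 1.27, 2.67 and 2.82 CPM in Dmp1KO (log2 -1.89 ± 0.58 SE, adjusted p = 0.0237). All Dmp1KO values were below WT 3, the lowest of a widely spread WT group.

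Mylk, the kinase that phosphorylates the myosin light chain and starts contraction, stood at 248, 209, 283 and 236 CPM in WT and 73.2, 161, 119.9 and 162 CPM in Dmp1KO (log2 -0.92 ± 0.28 SE, adjusted p = 0.0214). The highest Dmp1KO values, in libraries 2 and 4, were still below WT 2. The 2 smooth muscle actins did not pass the test. Acta2 stood at 679.8, 894, 994 and 923 CPM in WT and 213, 649.6, 489 and 681 CPM in Dmp1KO (log2 -0.78 ± 0.38 SE, adjusted p = 0.129), where Dmp1KO 4 lay just above WT 1 and Dmp1KO 1 was far below every other library of its genotype. For Actg2, gamma smooth muscle actin, the estimate was log2 -0.63 ± 0.41 SE (adjusted p = 0.244).

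Of the 50-base stretches of Acta2 0.352% occur in another gene, and of those of Actg2 0%. The other thin filament genes missed the threshold. Cnn2 (calponin 2), Cald1 (caldesmon, an actin-binding inhibitor of myosin), Tpm2 and Tpm4 (tropomyosins) and Lmod1 (leiomodin 1, which starts actin filaments) had log2 estimates of -0.27, -0.12, -0.03, -0.34 and -0.73, and Tpm1, a further tropomyosin, 0.23 ± 0.18 SE (adjusted p = 0.329). Myl9, the regulatory light chain, had an estimate of -0.55 (adjusted p = 0.226). Cald1 and Tpm2 in Dmp1KO 2 to 4 lay within the WT range and Tpm1 above it, while Dmp1KO 1 lay below every WT library for all of these genes.

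Among genes of cell structure and adhesion, 3 of 7 fell. Synpo2, an actin-bundling protein of Z discs and stress fibres, stood at 14.6, 12.9, 15.5 and 13.5 CPM in WT and 3.7, 5.77, 4.44 and 5.5 CPM in Dmp1KO, a fall of 2.91-fold (log2 -1.54 ± 0.43 SE, adjusted p = 0.0145). WT values were tight, and a wide gap lay between the lowest of them and the highest Dmp1KO value. Des, desmin, stood at 3.98, 3.95, 4.07 and 7.54 CPM in WT and 2.51, 3.13, 1.97 and 1.8 CPM in Dmp1KO (log2 -1.05 ± 0.35 SE, adjusted p = 0.033), with WT 4 well above the other WT libraries.

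Actn1, the actin cross-linker alpha-actinin 1, stood at 468, 574, 561 and 543 CPM in WT and 333, 450.2, 389 and 469 CPM in Dmp1KO (log2 -0.39 ± 0.12 SE, adjusted p = 0.0236). Here the groups overlapped, since Dmp1KO 4 lay just above WT 1. Flna missed the threshold narrowly (log2 -0.44 ± 0.17 SE, adjusted p = 0.0505) with its libraries fully separated. Vcl (vinculin, which links actin to adhesions) had a log2 estimate of -0.41, Zyx (the adhesion protein zyxin) -0.16 and Smtn (smoothelin, a marker of contractile smooth muscle) 0.02, none of which passed. For Vcl, 39.2% of its 50-base stretches also occur in Ap3m1.

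Of the 6 PDZ and LIM domain genes tested, Fhl1 and Fhl2 fell. These LIM-only proteins sit at actin filaments and in the nucleus, and FHL2 is a known cofactor of SRF and other factors. Fhl2 stood at 31.4, 40.4, 40.7 and 36 CPM in WT and 20.0, 21.1, 19.3 and 22 CPM in Dmp1KO, a fall of 1.8-fold (log2 -0.85 ± 0.21 SE, adjusted p = 0.00751). The 4 Dmp1KO values were nearly equal, and Dmp1KO 1 did not stand apart as it did in most other genes. Fhl1 stood at 66.2, 94.8, 91.9 and 86.8 CPM in WT and 18.2, 37.6, 34.6 and 45.5 CPM in Dmp1KO (log2 -1.32 ± 0.40 SE, adjusted p = 0.0204), again with no overlap.

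Ldb3, a PDZ-LIM protein of the Z disc, had all Dmp1KO libraries below WT but a log2 estimate of -0.37 that missed the threshold (adjusted p = 0.16). Pdlim7 (a PDZ-LIM scaffold), Csrp1 and Csrp2 (cysteine-rich LIM proteins) had estimates of -0.33, -0.19 and -0.56 and did not pass. Pln, at 0.119 to 0.445 CPM in any library, had an estimate of -0.52 (adjusted p = 0.366), and 64.7% of its exon bases are overlapped on the opposite strand.

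Of the 3 YAP targets, Ankrd1 alone passed the test. Ankrd1, a nuclear ankyrin-repeat protein of stretched muscle and a standard YAP readout, stood at 35.5, 106, 61.4 and 50.2 CPM in WT and 8.59, 11.5, 14.6 and 17.1 CPM in Dmp1KO, a fall of 4.88-fold (log2 -2.29 ± 0.66 SE, adjusted p = 0.0173). All Dmp1KO values lay far under WT 1, the lowest WT library, and this was the largest change among the 32 genes. Ctgf stood at 748, 1278, 1222 and 1150.5 CPM in WT and 316, 538, 459 and 646 CPM in Dmp1KO, separated in all libraries but not past the threshold (log2 -1.17 ± 0.44 SE, adjusted p = 0.0552), and 23.2% of its exon bases are overlapped by Gm15270 on the opposite strand. Cyr61, the third standard YAP target and a secreted matrix protein like Ctgf, stood at 257, 329.7, 319 and 265 CPM in WT and 194, 285, 273 and 288 CPM in Dmp1KO (log2 -0.17 ± 0.18 SE, adjusted p = 0.483). Except for Dmp1KO 1, its values lay within the WT range.

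Neither of the regulators passed the test. Srf stood at 51.9, 56.1, 54.6 and 52 CPM in WT and 38.7, 47.3, 43.6 and 52.2 CPM in Dmp1KO (log2 -0.24 ± 0.10 SE, adjusted p = 0.0651), with Dmp1KO 4 inside the WT range. Myocd stood at 2.12, 5.27, 2.56 and 3.04 CPM in WT and 0.566, 0.975, 1.1 and 2.23 CPM in Dmp1KO (log2 -1.41 ± 0.61 SE, adjusted p = 0.0854), with Dmp1KO 4 above WT 1. The Myocd libraries differed widely within both genotypes, and the interval of its log2 change ran from -2.72 to -0.11.

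**Figure D4:**
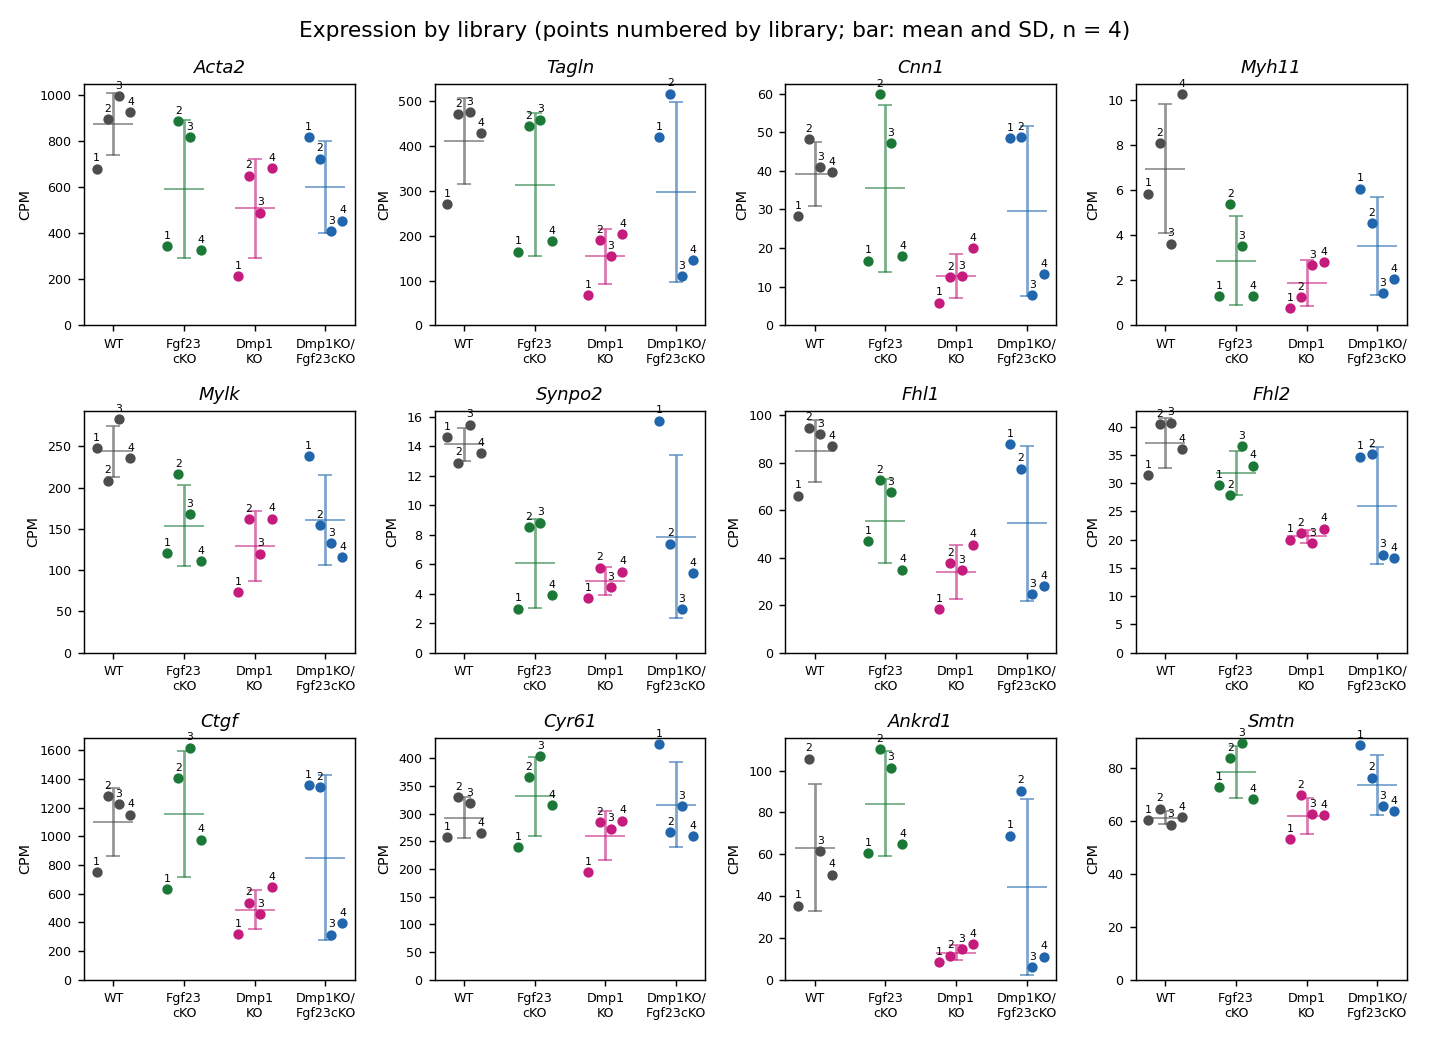
CPM of 12 genes in each library, with library numbers at the points and the mean and SD of 4 libraries as bars; each axis starts at 0. Dmp1KO libraries lie below all WT libraries for Tagln, Cnn1, Myh11, Mylk, Synpo2, Fhl1, Fhl2, Ctgf and Ankrd1, while Dmp1KO/Fgf23cKO 3 and 4 lie below all WT libraries for each of these genes.

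The count of 10 rests on several libraries. The number that fell was 4 without Dmp1KO 1, 5 without WT 2, WT 4 or Dmp1KO 3, 6 without WT 3 and between 7 and 12 without any other library, 14 in a fit without the Dmp1KO/Fgf23cKO libraries, and 16 when WT and Dmp1KO were fitted alone. Synpo2 and Fhl2 passed in all 16 fits that leave out 1 library, whereas Ankrd1 did not pass without WT 2 (adjusted p = 0.0519), Fhl1 without Dmp1KO 1 (0.0521), Mylk without WT 3 or Dmp1KO 3 (up to 0.0553), Myh11 without WT 2, WT 4, Dmp1KO 1 or Dmp1KO 2 (up to 0.0654), Actn1 without WT 2, WT 3, WT 4, Dmp1KO 1 or Dmp1KO 3 (up to 0.0638), Des without WT 4, Dmp1KO 1, Dmp1KO 3 or Dmp1KO 4 (up to 0.121), Cnn1 without any single one of these 6 libraries, namely Dmp1KO 1 to 3 and WT 2 to 4, and Tagln without those or Dmp1KO 4 (both up to 0.0996). Without Dmp1KO 1, Tpm1 passed as higher (log2 0.40, adjusted p = 0.0244), which makes 5 calls in all.

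Deletion of Fgf23 with Dmp1 intact gave fewer calls than Dmp1KO, although these mutants were not tested against each other. In Fgf23cKO against WT, 1 gene rose (Smtn) and 1 fell (Ldb3), where 6.68% of all genes were called higher and 4.72% lower. The unadjusted p was under 0.05 for 6 of the 32 genes, a lower share than the 4480 of all 16430 genes. The estimate was negative for 22 of the 32 genes, with a median of -0.15, and 3 genes (Synpo2, Cnn2 and Ldb3) had all libraries below WT, where 12% of all genes did. All comparisons with WT use the same 4 WT libraries, so their values are given side by side and are not independent.

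Ldb3 stood at 5.05, 11.3, 9.24 and 7.17 CPM in Fgf23cKO, against 11.5, 12.6, 15.6 and 12.6 CPM in WT (log2 -0.68 ± 0.20 SE, adjusted p = 0.0386), with Fgf23cKO 1 and 4 lowest. Smtn stood at 72.7, 83.8, 89.5 and 68.4 CPM in Fgf23cKO, against 60.2, 64.7, 58.7 and 61.6 CPM in WT (log2 0.36 ± 0.11 SE, adjusted p = 0.0492), with every Fgf23cKO library above WT. On the other strand 17.2% of the Smtn exon bases are overlapped, by genes of which Gm11946 had 0 counts in all libraries.

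Synpo2, at 2.98, 8.5, 8.81 and 3.9 CPM in Fgf23cKO, lay below WT in all libraries but missed the threshold (log2 -1.22 ± 0.43 SE, adjusted p = 0.0773). Synpo2 passed with the DESeq2 test, with limma-trend, with WT and Fgf23cKO fitted alone, and without the Dmp1KO/Fgf23cKO libraries. The call for Smtn was lost with limma-trend and without the filter, and that for Ldb3 with WT and Fgf23cKO fitted alone. The calls for Ldb3 and Smtn were each lost without any single WT library, Fgf23cKO 1, Fgf23cKO 3 or Dmp1KO 3 and, for Ldb3 also without Fgf23cKO 4 and for Smtn also without Dmp1KO 4, Dmp1KO 2 or Fgf23cKO 2. The adjusted p reached 0.113 for Ldb3 and 0.137 for Smtn, and the count was 0 to 3 over these fits and 4 without the Dmp1KO/Fgf23cKO libraries.

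The pair of low libraries can be seen gene by gene. Tagln stood at 164, 443, 458 and 188 CPM in Fgf23cKO 1 to 4, Cnn1 at 16.8, 59.9, 47.1 and 18 CPM and Acta2 at 342, 884, 815 and 327 CPM. In all of these, libraries 2 and 3 lay within or above the WT range and libraries 1 and 4 under it.

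In Fgf23cKO 1 to 4, Ankrd1 stood at 60.4, 110.2, 101 and 64.8 CPM and Ctgf at 632, 1403, 1618 and 977 CPM, so that Ankrd1 was inside or above the WT range in every Fgf23cKO library and Ctgf was under it in library 1 alone. The log2 estimates against WT were 0.41 ± 0.63 SE for Ankrd1, 0.07 ± 0.44 SE for Ctgf and 0.18 ± 0.18 SE for Cyr61. Osteoblast marker sums were 52270, 62050, 64550 and 58490 CPM and macrophage marker sums 10360, 8190, 6546 and 7268 CPM in Fgf23cKO 1 to 4, and their part in the split of the contractile genes was not tested.

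With both genes disrupted, no member passed the test against WT. In Dmp1KO/Fgf23cKO against WT, 0 of the 32 genes were called, where 7.72% of all genes were called higher and 3.63% lower. The unadjusted p was under 0.05 for 4 of the 32 genes (Fhl2, Smtn, Actn1 and Mylk), a lower share than the 4545 of all 16430 genes. DESeq2 and limma-trend also called 0. The estimate was negative for 27 of the 32 genes, with a median of -0.27, and the 2 kinds of library described above entered every value. Without Dmp1KO/Fgf23cKO 1 the count was 3 (Mylk, Synpo2 and Fhl2, adjusted p = 0.0463 for Mylk and 0.0203 for Synpo2) and without Dmp1KO/Fgf23cKO 2 it was 1 (Fhl2).

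Ankrd1 stood at 69, 90.4, 6.21 and 11.1 CPM in Dmp1KO/Fgf23cKO 1 to 4. Libraries 1 and 2 lay inside the WT range, and libraries 3 and 4 lay within or below the range of Dmp1KO (log2 -0.51 ± 0.63 SE, adjusted p = 0.634). Ctgf stood at 1356, 1344, 315 and 393 CPM, with libraries 1 and 2 above every WT library and 3 and 4 far below. Fhl2 stood at 34.7, 35.2, 17.4 and 16.8 CPM (log2 -0.51 ± 0.21 SE, adjusted p = 0.126), with libraries 1 and 2 inside the WT range and 3 and 4 below every Dmp1KO library. Fhl1 stood at 87.7, 77.5, 24.7 and 28.1 CPM.

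For the contractile genes the gap was as wide. Tagln stood at 419, 516, 110.0 and 145 CPM and Cnn1 at 48.5, 48.6, 7.95 and 13.3 CPM. Libraries 1 and 2 were within or above the WT range and libraries 3 and 4 below every WT library. Synpo2 departed from this, at 15.7, 7.39, 2.96 and 5.4 CPM, since library 2 was also far below WT (log2 -0.84 ± 0.42 SE, adjusted p = 0.213), and Des at 6.01, 2.65, 4.89 and 2.35 CPM followed no such order.

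Set against Dmp1KO, which asks what deleting Fgf23 changes when Dmp1 is absent, 0 of the 32 genes were called, where 0.00609% of all genes were called higher and 0.0122% lower, 3 genes in all. The unadjusted p was under 0.05 for 3 of the 32 genes (Ankrd1, Smtn and Des), a lower share than the 2264 of all 16430 genes. DESeq2 and limma-trend called 0. The estimate was positive for 29 of the 32 genes, with a median of 0.31, and it was 0.11 to 0.47 when single libraries were left out. Ankrd1 had the largest estimate (log2 1.77 ± 0.65 SE, interval 0.38 to 3.17, adjusted p = 0.307), followed by Cnn1 (log2 1.21, interval -0.0011 to 2.43) and Tagln (log2 0.95, interval -0.11 to 2.01). These estimates rest on the 2 kinds of Dmp1KO/Fgf23cKO library described above.

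The interaction asks whether Fgf23 deletion acted differently with and without Dmp1. It was called for 0 of the 32 genes by edgeR, where 2.90% of all genes were called higher and 4.72% lower. The unadjusted p was under 0.05 for 6 of the 32, a lower share than the 4084 of all 16430 genes. DESeq2 called 3 (Synpo2, Ldb3 and Myh11) and limma-trend 0. The estimate was positive for 30 of 32 genes with a median of 0.43. The largest by adjusted p were Synpo2 (log2 1.92 ± 0.60 SE, adjusted p = 0.0644), Ldb3 (log2 0.80 ± 0.28 SE, adjusted p = 0.091) and Myh11 (log2 2.18 ± 0.81 SE, adjusted p = 0.112). In these genes Fgf23cKO lay below WT while Dmp1KO/Fgf23cKO lay above Dmp1KO on average. Synpo2 passed without Dmp1KO/Fgf23cKO 3 (adjusted p = 0.0184) and Ldb3 without Fgf23cKO 2 (adjusted p = 0.0387).

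**Figure D5:**
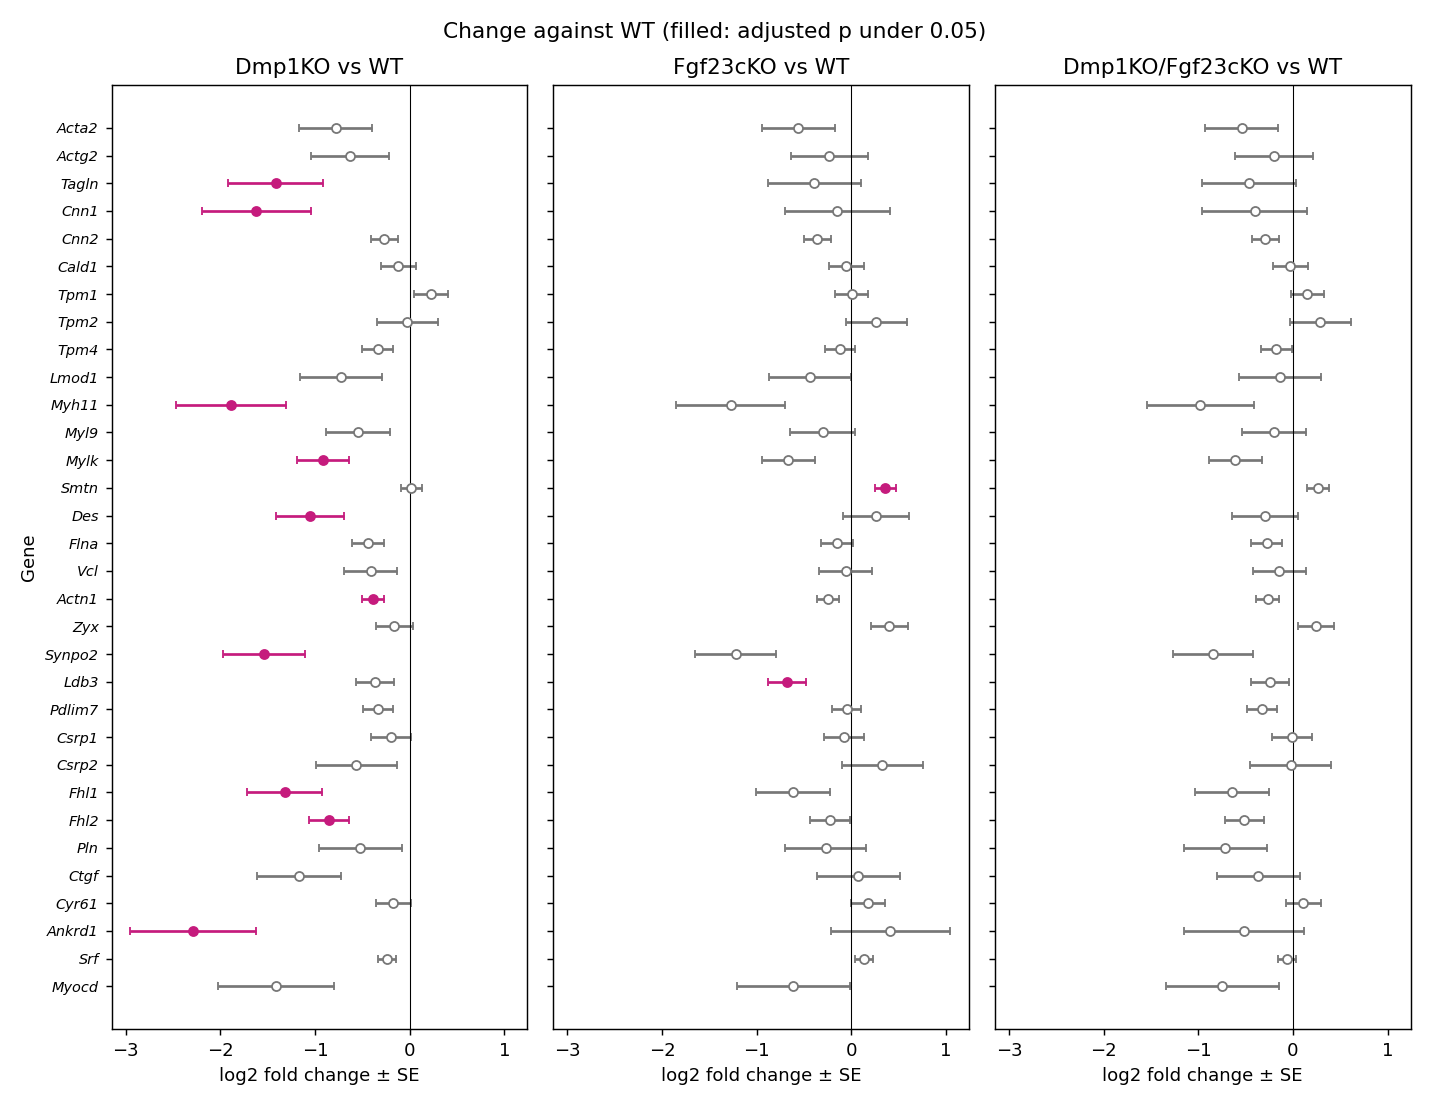
Log2 fold change with its SE for the 32 genes in 3 comparisons with the same WT libraries, filled where the adjusted p was under 0.05. In Dmp1KO 10 genes are filled, all to the left of 0; in Fgf23cKO Ldb3 is filled on the left and Smtn on the right; in Dmp1KO/Fgf23cKO none is filled.

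Genes around these pathways were read as well. The myocardin-related factors Mkl1 and Mkl2 did not pass in Dmp1KO, with log2 estimates of -0.20 and -0.24.

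Of 20 other smooth muscle and SRF target genes tested, 11 fell and 1 rose in Dmp1KO (55% lower and 5% higher, beside 15.8% and 18.0% of all genes tested), with a median log2 fold change of -0.41. Lpp, a LIM protein of focal adhesions, stood in WT at 399.9, 498, 437 and 449.6 CPM, in Fgf23cKO at 265, 352, 341 and 277 CPM, in Dmp1KO at 226, 279, 205 and 229.8 CPM and in Dmp1KO/Fgf23cKO at 308, 317, 242 and 226 CPM. Every mutant library was below every WT library, and Lpp fell in all 3 comparisons (log2 -0.92 ± 0.13 SE, adjusted p = 0.000235 in Dmp1KO, log2 -0.53 ± 0.13 SE, adjusted p = 0.0177 in Fgf23cKO, log2 -0.70 ± 0.13 SE, adjusted p = 0.00384 in Dmp1KO/Fgf23cKO). Its interaction was called (log2 0.75 ± 0.19 SE, adjusted p = 0.0268), so that on the log2 scale the fall in the double mutant was smaller than the sum of both single ones.

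Itga8, the integrin alpha 8 of mesangial and smooth muscle cells, fell 4.65-fold in Dmp1KO (log2 -2.22 ± 0.45 SE, adjusted p = 0.0022) and also in Dmp1KO/Fgf23cKO (log2 -1.64 ± 0.44 SE, adjusted p = 0.025). Kcnmb1, a subunit of the calcium-activated potassium channel of smooth muscle, fell 5.26-fold in Dmp1KO (log2 -2.40 ± 0.60 SE, adjusted p = 0.00783). Ppp1r14b, a phosphatase inhibitor, was the gene that rose (log2 0.44 ± 0.11 SE, adjusted p = 0.00586). No member of this list was called between Dmp1KO/Fgf23cKO and Dmp1KO. The unadjusted p was under 0.05 for 6 of the 20, and for 2264 of all 16430 genes tested.

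Of 21 Hippo components, 4 fell and 2 rose in Dmp1KO. These shares of 19% and 9.52% were close to or under the 15.8% lower and 18.0% higher of all genes tested, so the members named next for Dmp1KO are single values and no result about the list. Amot, the angiomotin that retains YAP at junctions, fell (log2 -0.60 ± 0.11 SE, adjusted p = 0.00142), as did Mob1b, a LATS kinase partner (log2 -0.32), and Vgll3, a TEAD cofactor (log2 -0.99). Wwc1, an upstream scaffold of the pathway, rose (log2 1.59 ± 0.40 SE, adjusted p = 0.00775). YAP itself, Yap1, and TAZ, Wwtr1, had log2 estimates of -0.13 and -0.17 in Dmp1KO and did not pass. In Dmp1KO/Fgf23cKO against WT, 3 of the 21 fell and 0 rose (14.3% and 0%, beside 3.63% lower and 7.72% higher of all genes tested). Those that fell were Amot, Mob1b and Yap1 (log2 -0.59 ± 0.11 SE, adjusted p = 0.00441 for Amot and log2 -0.28 ± 0.09 SE, adjusted p = 0.0499 for Yap1).

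Of 17 other YAP target genes, 6 fell and 3 rose in Dmp1KO, that is 35.3% lower and 17.6% higher, beside 15.8% and 18.0% of all genes tested. Axl, a receptor tyrosine kinase, fell 2.98-fold (log2 -1.57 ± 0.37 SE, adjusted p = 0.00603), and Crim1, a transmembrane binder of bone morphogenetic proteins, fell as well (log2 -1.25). Gadd45a, a stress and growth-arrest gene, rose 3.46-fold in Dmp1KO (log2 1.79 ± 0.25 SE, adjusted p = 0.000218) and also in Dmp1KO/Fgf23cKO (log2 1.64 ± 0.25 SE, adjusted p = 0.00116), as did Fjx1, a secreted kinase-like protein, in both (log2 0.68 and 0.51). The share that rose was near that of all genes. Ptpn14, a phosphatase that binds YAP, fell in Fgf23cKO (log2 -0.44 ± 0.09 SE, adjusted p = 0.00512) and in Dmp1KO/Fgf23cKO (log2 -0.34, adjusted p = 0.0208).

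Markers of other cells were read beside these genes. In WT the 7 pericyte markers summed to between 456 and 509 CPM, in Fgf23cKO to between 325 and 421 CPM, in Dmp1KO to between 327 and 399 CPM and in the double mutant to between 325 and 499 CPM. Of the 7, 2 were called lower in Dmp1KO (28.6%) and 1 higher (14.3%), beside 15.8% and 18.0% of all genes tested. The estimate was negative for 5 of the 7. Pdgfrb, the growth factor receptor of mural cells, was 1 of the 2 that fell (log2 -0.79 ± 0.21 SE, adjusted p = 0.0106), while Cspg4, a proteoglycan of pericytes, rose (log2 0.60 ± 0.21 SE, adjusted p = 0.0413). The summed level of the 6 osteoblast markers lay between 29910 and 53030 CPM in WT but between 83050 and 92040 CPM in Dmp1KO. That of the 5 chondrocyte markers lay between 126 and 205 CPM in WT but between 48.5 and 97.2 CPM in Dmp1KO. Of the 6 macrophage markers, 2 were called lower in Dmp1KO (33.3%, beside 15.8% of all genes tested), and 4 of the 6 had a negative estimate. Csf1r and Adgre1, a growth factor receptor and a surface receptor of macrophages, fell (log2 -0.65 ± 0.16 SE, adjusted p = 0.00683 for Csf1r and log2 -0.41 ± 0.13 SE, adjusted p = 0.0305 for Adgre1), with all Dmp1KO libraries below WT. The sum of the 6 was 9304, 5845, 5676 and 5569 CPM in Dmp1KO 1 to 4, against 6933 to 7927 CPM in WT. It was thus above the WT range in Dmp1KO 1 and below it in the others. Most of each sum was the marker Lyz2 (7552, 4273, 3975 and 3907 CPM in Dmp1KO 1 to 4). Csf1r and Adgre1 went the other way, with their lowest Dmp1KO values, 692 and 267 CPM, in Dmp1KO 1. Of the 5 adipocyte markers 0 were called in Dmp1KO by edgeR. The unadjusted p was under 0.05 for 2 of them, and for 7459 of all 16430 genes tested. Their summed level was higher in every Dmp1KO library through Lpl, lipoprotein lipase (log2 1.09 ± 0.43 SE, adjusted p = 0.065), while 3 of the 5 had a negative estimate. CPM is a share of the library, and what part these levels had in the contractile genes was not tested.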

How the data were processed

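Per the sources, the authors prepared total RNA with a TruSeq kit, read 50 bp pairs on a NovaSeq instrument and mapped them to mm10 in StrandNGS, whose version and gene models are unknown here, as is whether strand entered the counting. The deposited values are expected counts per gene, and 33.4% of them are not whole. Their table of normalised log2 values and their tables of fold changes and p-values for each mutant against WT were not used. No column was left unmapped.

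Counts were rounded and tested with edgeR 4.0.16 (quasi-likelihood test, TMM scaling, R 4.3.3) in 1 fit of 16 libraries with a mean per genotype. The filterByExpr filter (minimum count 10, total 15) kept 16430 genes, and calls were made at a Benjamini-Hochberg adjusted p under 0.05 over those genes. Alternatives used DESeq2 1.42.0 (test and size factors), limma-trend 3.58.1 (prior count 2), no filter, only the groups compared, and each library left out. CPM use TMM-adjusted totals, and intervals of log2 fold changes are at 95%, from the t distribution with the degrees of freedom of each gene's test. Levels per kb, overlaps and shared 50-base stretches use GENCODE M21, and promoters RefSeq.

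All 33 genes are named. Of each further list, up to 4 called genes with the smallest adjusted p in a contrast are named, with a few others (Mkl1, Mkl2, Yap1, Wwtr1, Pdgfrb, Cspg4, Csf1r, Adgre1, Lpl and Fjx1 in the double mutant) chosen after their values were seen. One of the further lists is not reported here. The members and lists were chosen with earlier results of these data known. Replicate numbers follow the listing order. No libraries were duplicates, since the lowest mean chi-square between replicates was 25.17.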

Additional observations from a re-analysis of the deposited data

Results flagged for a closer look

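Single libraries that lay far from the other 3 of their genotype were looked for in the 32 genes and 4 genotypes. Of 128 sets of 4 libraries, 6 held such a value, where chance gives about 1 in 20. The gap to the nearest library made up 0.981 of the whole range for Tpm2 in Dmp1KO 1 (34.7 CPM, against 84.4 to 85.3 CPM in the others) and 0.842 for Cyr61 in Dmp1KO 1 (194 CPM, against 273 to 288 CPM). It was 0.966 for Des in WT 4 (7.54 CPM, against 3.95 to 4.07 CPM), 0.907 for Pln in WT 3 (0.165 CPM, against 0.338 to 0.356 CPM), 0.895 for Zyx in Dmp1KO 4 (105 CPM, against 89.9 to 91.5 CPM) and 0.864 for Cnn2 in Dmp1KO/Fgf23cKO 1 (272 CPM, against 213 to 221 CPM). Of these genes Des alone was called, and its call was lost without WT 4 (up to an adjusted p of 0.121 over single libraries left out). No member differed between the effects of Fgf23 deletion with and without Dmp1 at the threshold in edgeR.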

How the results depend on the processing

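No paired analysis was possible because the labels give no replicate numbers shared between genotypes. In Dmp1KO against WT, 10 genes were called, and 11 with DESeq2 size factors, 13 with the DESeq2 test, 11 with limma-trend, 8 without the filter and 16 with the groups compared fitted alone. In Fgf23cKO against WT, 2 were called, and 1 without the filter and 4 with the groups compared fitted alone. In the interaction 0 were called, and 3 with the DESeq2 test. A fit without the Dmp1KO/Fgf23cKO libraries, chosen after seeing the data, called 14 in Dmp1KO and 4 in Fgf23cKO. With single libraries left out the counts ran from 5 to 12 in Dmp1KO, 0 to 3 in Fgf23cKO, 0 to 3 in Dmp1KO/Fgf23cKO against WT, 0 to 0 in Dmp1KO/Fgf23cKO against Dmp1KO and 0 to 1 in the interaction. Over 3392 refits of single genes, 3293 stayed on their side of the threshold, 53 lost a call, 46 gained one and 0 called values changed direction. Fewer libraries lower the power of a refit, and the causes of other changes were not tested. Genes at low counts (Pln, Myocd, Myh11 and Des) carry wide errors, and Pdlim3 could not be tested at this depth.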
